A study of Rattus norvegicus with 30 samples.

Results

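Complement is a cascade of plasma and tissue proteins that marks surfaces for removal and can open pores in membranes. The classical pathway starts when C1q binds a target and activates the proteases C1r and C1s, which cleave C4 and C2 to build the enzyme that splits C3. Factor B (Cfb) forms the corresponding enzyme of the alternative pathway. Serping1 (C1 inhibitor) blocks C1r and C1s, Cd55 speeds the decay of the C3-splitting enzymes, and Cd59 blocks the membrane pore. The testis is a site of restrained immunity, where germ cells that arise after birth have to be tolerated, and complement regulators are known on germ cells and sperm.

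RNA levels of 8 rat genes of this cascade were followed, out of 17322 genes in the deposited table: the components C1r, C1s, C2, C3 and Cfb, and the regulators Serping1, Cd55 and Cd59. They were chosen by name, as the rows whose Entrez Gene identifier belongs to the rat symbol. All 8 were present, and Cd59 is the identifier 25407, which RefSeq names Cd59b with Cd59 as a synonym.

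Whole testes of Wistar (Han) rats were taken at 6 ages: 8.5 days postpartum (dpp), then 14.5 and 24.5 dpp, then 30.5 and 36.5 dpp, and 53.5 dpp. For the cultures, each 8.5 dpp testis gave 6 fragments, which were kept on agarose at the interface of gas and medium, at a temperature of 34 °C and for 6 days (D6), 16 days (D16), 22 days (D22) or 28 days (D28), in medium with serum replacement, retinol and vitamin E. No gene was altered in any group. Each group had 3 libraries, except that 1 of the 14.5 dpp libraries was listed at 0 for all genes and was not used, which left 29. Each in vivo library came from a separate testis, and each cultured library pooled 12 explants from at least 3 males, with the necrotic centre removed, so a cultured library is a mean over animals and an in vivo library is not. Values were FPKM, read counts relative to gene length and library size. The depth behind each value is unknown, and p-values measure the spread between these libraries. Between 12520 and 13563 genes were above 0 in a library. In bulk tissue, fewer cells of a type and less RNA per cell cannot be told apart.

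C3 was the member listed at 0 in every testis and above 0 in nearly every culture, and C1r was the abundant protease of the same cascade whose level in culture stayed nearer to that of the starting tissue. The 250 bases before the start of each gene are shown because these 2 members moved differently and both have a sequence in the RefSeq promoter table (build GRCr8, not the rn6 build of the values). Capitals mark matches to TTNNGNAA, read on both strands, a form of the sequence bound by C/EBP factors, which was chosen after the C3 sequence had been seen.
C3, chr9:2201340-2201589, minus strand: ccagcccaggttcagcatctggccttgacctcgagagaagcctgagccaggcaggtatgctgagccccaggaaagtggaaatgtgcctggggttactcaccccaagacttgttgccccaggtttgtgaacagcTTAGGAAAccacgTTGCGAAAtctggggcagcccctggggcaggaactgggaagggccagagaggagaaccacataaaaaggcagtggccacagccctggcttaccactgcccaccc
C1r, chr4:159098763-159099012, plus strand: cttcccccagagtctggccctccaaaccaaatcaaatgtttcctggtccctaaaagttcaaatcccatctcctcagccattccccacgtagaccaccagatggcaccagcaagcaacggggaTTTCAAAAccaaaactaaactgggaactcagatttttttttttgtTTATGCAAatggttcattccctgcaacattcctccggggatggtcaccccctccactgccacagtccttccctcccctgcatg

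Both sequences held 2 matches, and the sequence of Cd55 held none. This motif was present in 36.8% of 27457 rat promoters of the same length, so a match is common. No match in these 3 sequences was found for the NF-kB motif (6.41% of promoters), for TTCNNNGAA of STAT factors (7.52%) or for the IRF motif (3.29%) on either strand, nor for TATAAA on the gene strand (8.38%). The matches are a description of these letters, and the table has no entry for C1s, C2, Cfb, Serping1 or Cd59.

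**Figure D1:**
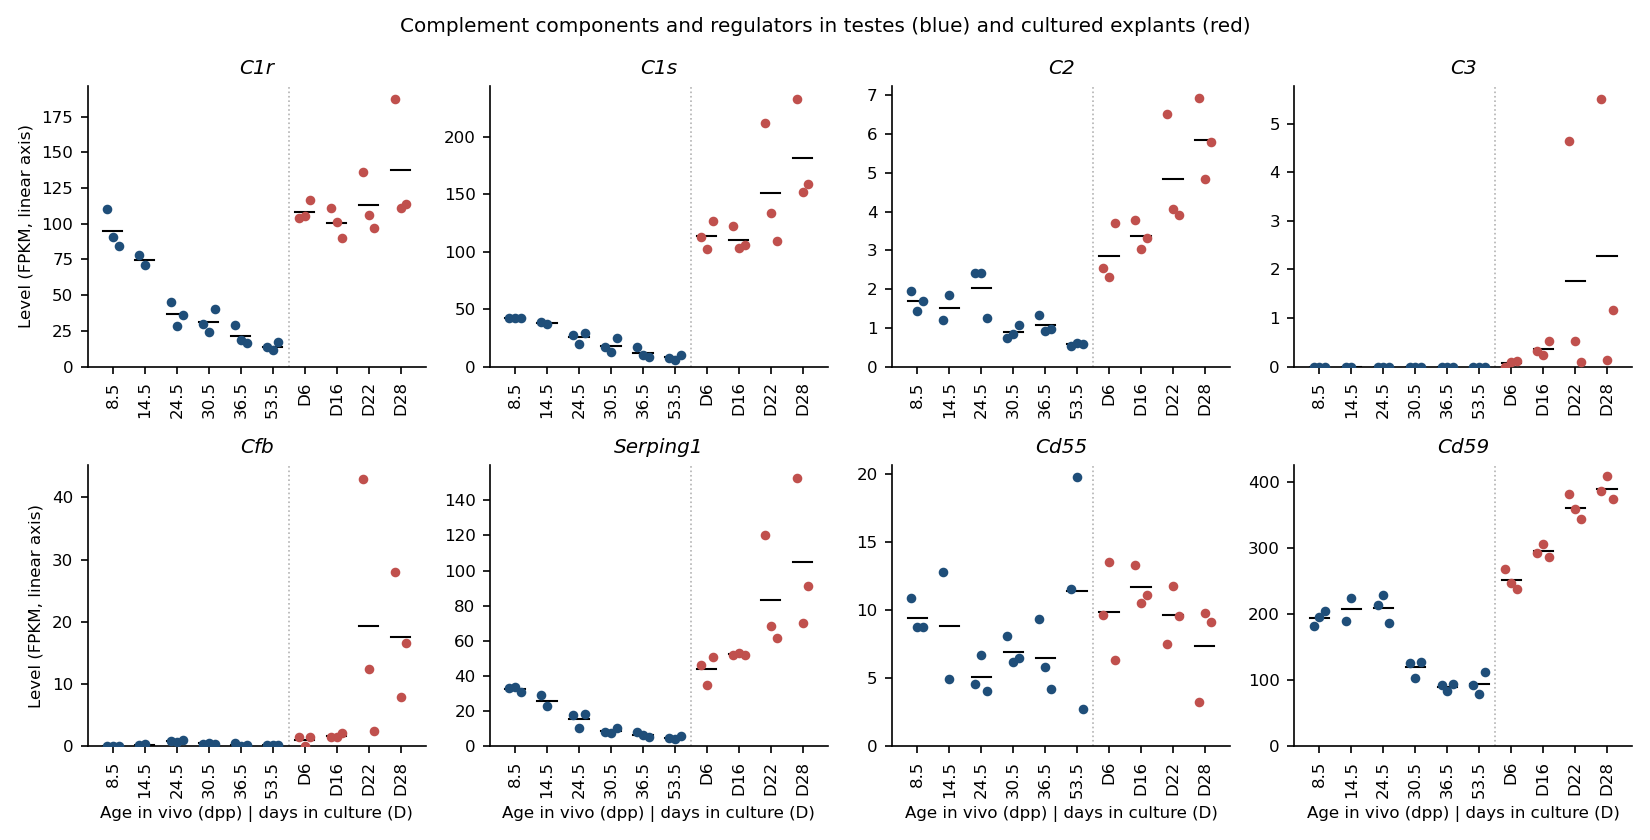
FPKM of the 8 genes in each library (dots) with the group mean (bar), for the 6 in vivo ages (blue) and the 4 culture times (red), on linear axes that differ between panels. C1s, Serping1 and Cd59 lay above every testis in all 12 cultured libraries, while Cd55 did so in 0 of 12. The share of all genes that did so was not counted.

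Across the 29 libraries, 3 of the 8 genes separated cultures from testes completely. Each of the 12 cultured libraries exceeded the highest of the 17 in vivo values for C1s, Serping1 and Cd59. For C2, C3 and Cfb, 11 of 12 did so, for C1r 6 of 12, and for Cd55 0 of 12. The share of all genes that separated in this way was not counted, so these counts do not set the members apart from other genes. At D28 against 36.5 dpp alone, 46.7% of all tested genes were called higher.

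C1s, the protease that cleaves C4 and C2, showed a rise at every culture time. At 8.5 dpp the 3 libraries held 42.3, 42.1 and 42.3 FPKM, and the 2 libraries of 14.5 dpp held 38.7 and 37.1. At D6 they held 113, 102 and 127 FPKM, at D16 123, 103 and 106, at D22 212, 133 and 109, and at D28 233, 152 and 159. No cultured library overlapped either young control, and the first libraries of D22 and D28 were the highest. The mean at D28 was 181 ± 45 FPKM (SD, n = 3), 4.29 times that of the starting tissue (42.2 ± 0.079, n = 3). On the log2(FPKM + 1) scale C1s was higher by 1.41 (SE 0.21) at D6 and by 2.05 (SE 0.21) at D28 than at 8.5 dpp (limma, F test, adjusted p = 1.97e-05). C1s and Cfb belong to a set of genes that the study itself selected on these samples, so their direction in culture is not independent evidence.

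C1r, which activates C1s, started from a higher level and changed less in culture. Its values were 110.0, 91.0 and 84.5 FPKM at 8.5 dpp and 77.8 and 70.8 at 14.5 dpp. They were 104, 105 and 116 FPKM at D6, 111, 101 and 89.8 at D16, 136, 106 and 96.9 at D22, and 188, 111 and 114 at D28. The cultured libraries overlapped those of 8.5 dpp at D6, D16 and D22, and D28 replicate 1 stood above all others. Every cultured library was above both libraries of 14.5 dpp. C1r did not pass the test against 8.5 dpp (limma, F test, adjusted p = 0.194) or against 14.5 dpp (adjusted p = 0.0698). There the D28 value was 0.84 (SE 0.23, limma adjusted p = 0.0153 for that contrast). The D6 value against 14.5 dpp, in a fit of its own, was 0.54 (SE 0.12, limma adjusted p = 0.038). For C1r the ratio of medians was below 2 in both. Without D28 replicate 2 it was called against 14.5 dpp, with 0.97 (SE 0.24). C1r and C1s lie next to each other on rat chromosome 4, and C1r overlaps an uncharacterised gene model in RefSeq. Whether reads were counted by strand is not given in the sources used here.

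The ratio of C1s to C1r, 2 proteases that act as a pair, differed between testes and cultures. In the 17 in vivo libraries C1s was at 0.384 to 0.817 of the FPKM of C1r (median 0.546). In the 12 cultured libraries it was at 0.973 to 1.56 (median 1.15), with no overlap. FPKM is per length, so this is a comparison of levels, and the scaling of a library cancels out of it.

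**Figure D2:**
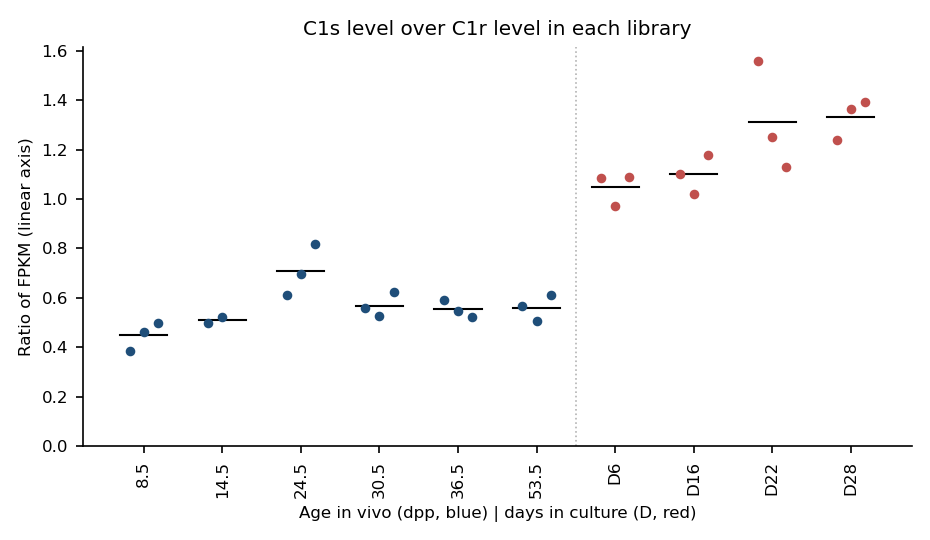
Ratio of C1s FPKM to C1r FPKM in each library (dots) by group, in vivo ages in blue and culture times in red. The in vivo libraries lay between 0.384 and 0.817 and the cultured libraries between 0.973 and 1.56.

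C2, which supplies the catalytic part of the classical C3-splitting enzyme, was a low gene that rose in culture. Its values were 1.94, 1.44 and 1.68 FPKM at 8.5 dpp and 1.19 and 1.84 at 14.5 dpp. At D6 they were 2.56, 2.30 and 3.71 FPKM, at D16 3.78, 3.04 and 3.31, at D22 6.51, 4.07 and 3.91, and at D28 6.92, 4.85 and 5.80. Each cultured library was above each library of 8.5 and 14.5 dpp. The difference from 8.5 dpp was 1.34 (SE 0.18) on the log2(FPKM + 1) scale at D28 (limma, F test, adjusted p = 0.000173), and the ratio of mean FPKM was 3.47. C2 overlaps Zbtb12 and neighbours Cfb on chromosome 20, so reads of C2 and Zbtb12 may not be separable.

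C3, the central component that every pathway splits, was listed at 0 in all 17 testes. In culture it was listed at 0, 0.0959 and 0.115 FPKM at D6 and at 0.320, 0.228 and 0.534 at D16. It was at 4.64, 0.536 and 0.0993 FPKM at D22 and at 5.50, 0.140 and 1.16 at D28. Only the first libraries of D22 and D28 and D28 replicate 3 exceeded 1 FPKM, and the spread within D22 and D28 was larger than their means, which were 1.76 ± 2.5 and 2.27 ± 2.8 FPKM (SD, n = 3). C3 did not pass the test against 8.5 dpp (limma, F test, adjusted p = 0.176) or 14.5 dpp (adjusted p = 0.403), but it was called against 8.5 dpp without D28 replicate 2, at 1.91 (SE 0.56). No fold is given, because an exact 0 in this file may be a failed estimate: Col1a2, a collagen gene of the stroma, was also listed at 0 in all 29 libraries.

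Cfb, the alternative pathway's counterpart of C2, had the largest log2 change of the 8 genes from either young control at D22 and D28. It was at 0, 0.0587 and 0 FPKM at 8.5 dpp and at 0.103 and 0.288 at 14.5 dpp. At D6 it was at 1.48, 0.0560 and 1.46 FPKM, at D16 at 1.52, 1.41 and 2.10, at D22 at 43.0, 12.5 and 2.45, and at D28 at 28.0, 7.83 and 16.6. D6 replicate 2 lay within the range of the young testes and every other cultured library above it, and the D22 libraries spanned the widest range. Against 14.5 dpp, the ratio of mean FPKM was 98.7 at D22 and 89.4 at D28. The log2(FPKM + 1) change was 3.41 (SE 0.85) at D22 and 3.79 (SE 0.85) at D28 (limma, F test, adjusted p = 0.0146), and the call was lost without either 14.5 dpp library, at 3.68 (SE 1.1) and 3.91 (SE 1.1) for D28. At D6 against 8.5 dpp the change was 0.87 (SE 0.70), with an adjusted p of 0.33 for that contrast in limma. No ratio is given against 8.5 dpp, where 2 of 3 libraries were listed at 0.

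The ratio of Cfb to C2 RNA was higher at D28 than in the testes. In the testes Cfb was at 0 to 0.762 of the FPKM of C2, at D6 at 0.0243 to 0.580 and at D16 at 0.403 to 0.634. At D22 it was at 0.626 to 6.60 and at D28 at 1.62 to 4.05 times C2. The libraries of D6, D16 and D22 overlapped the in vivo range and those of D28 did not. Both genes were low in the testes, and the ratio was not tested.

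Serping1, the inhibitor of C1r and C1s, was above both young controls at every culture time. Its values were 33.1, 33.6 and 30.9 FPKM at 8.5 dpp and 28.8 and 22.8 at 14.5 dpp. At D6 they were 46.0, 34.8 and 50.6 FPKM, at D16 51.8, 52.9 and 52.1, at D22 120.2, 68.7 and 61.3, and at D28 152, 70.3 and 91.2. No cultured library overlapped them, and the first libraries of D22 and D28 were again the highest. The mean was 105 ± 43 FPKM at D28 (SD, n = 3) and 32.5 ± 1.4 at 8.5 dpp, a ratio of 3.22. The log2(FPKM + 1) change was 1.58 (SE 0.27) at D28 (limma, F test, adjusted p = 0.00106), and at D6 it was 0.40 (SE 0.27) with a ratio of medians below 2. At D22 it was 1.27 (SE 0.27), and this call was lost without D22 replicate 1, at 0.98 (SE 0.25). Against 14.5 dpp it was 1.91 (SE 0.33) at D28 (adjusted p = 0.00722), and the call was lost without 14.5 dpp replicate 2, at 1.75 (SE 0.43).

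Cd59, the blocker of the membrane pore, was the most abundant of the 8 genes in FPKM in every group. Its values were 182, 196 and 205 FPKM at 8.5 dpp and 189.7 and 225 at 14.5 dpp. They were 269, 247 and 238 FPKM at D6, 292, 307 and 287 at D16, 382, 359 and 344 at D22, and 386, 409 and 374 at D28. Every cultured library was above every young testis. The mean at D28 was 390 ± 18 FPKM (SD, n = 3), 2.00 times the 194 ± 11 of 8.5 dpp, with an F test adjusted p of 7.25e-07 in limma. The ratio of group medians fell short of 2, so Cd59 was not called against either young control. It was called at D28 against 8.5 dpp without 8.5 dpp replicate 3 (1.04, SE 0.083) or D28 replicate 3 (1.03, SE 0.085), and against 14.5 dpp without 14.5 dpp replicate 2 (1.03, SE 0.11). A fit without either 14.5 dpp library leaves 1 control, which is then assumed to vary like the other groups.

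Cd55, which limits the C3-splitting enzymes at the cell surface, showed no difference from the young controls beyond the spread. It was at 10.9, 8.76 and 8.72 FPKM at 8.5 dpp and at 12.8 and 4.94 at 14.5 dpp. In culture it ranged from 6.30 to 13.6 FPKM at D6, 10.6 to 13.3 at D16, 7.50 to 11.8 at D22 and 3.26 to 9.76 at D28. These ranges overlapped those of both young controls at every time. The limma F test gave an adjusted p of 0.378 against 8.5 dpp and of 0.456 against 14.5 dpp, and the D28 value against 8.5 dpp was -0.43 (SE 0.32).

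**Figure D3:**
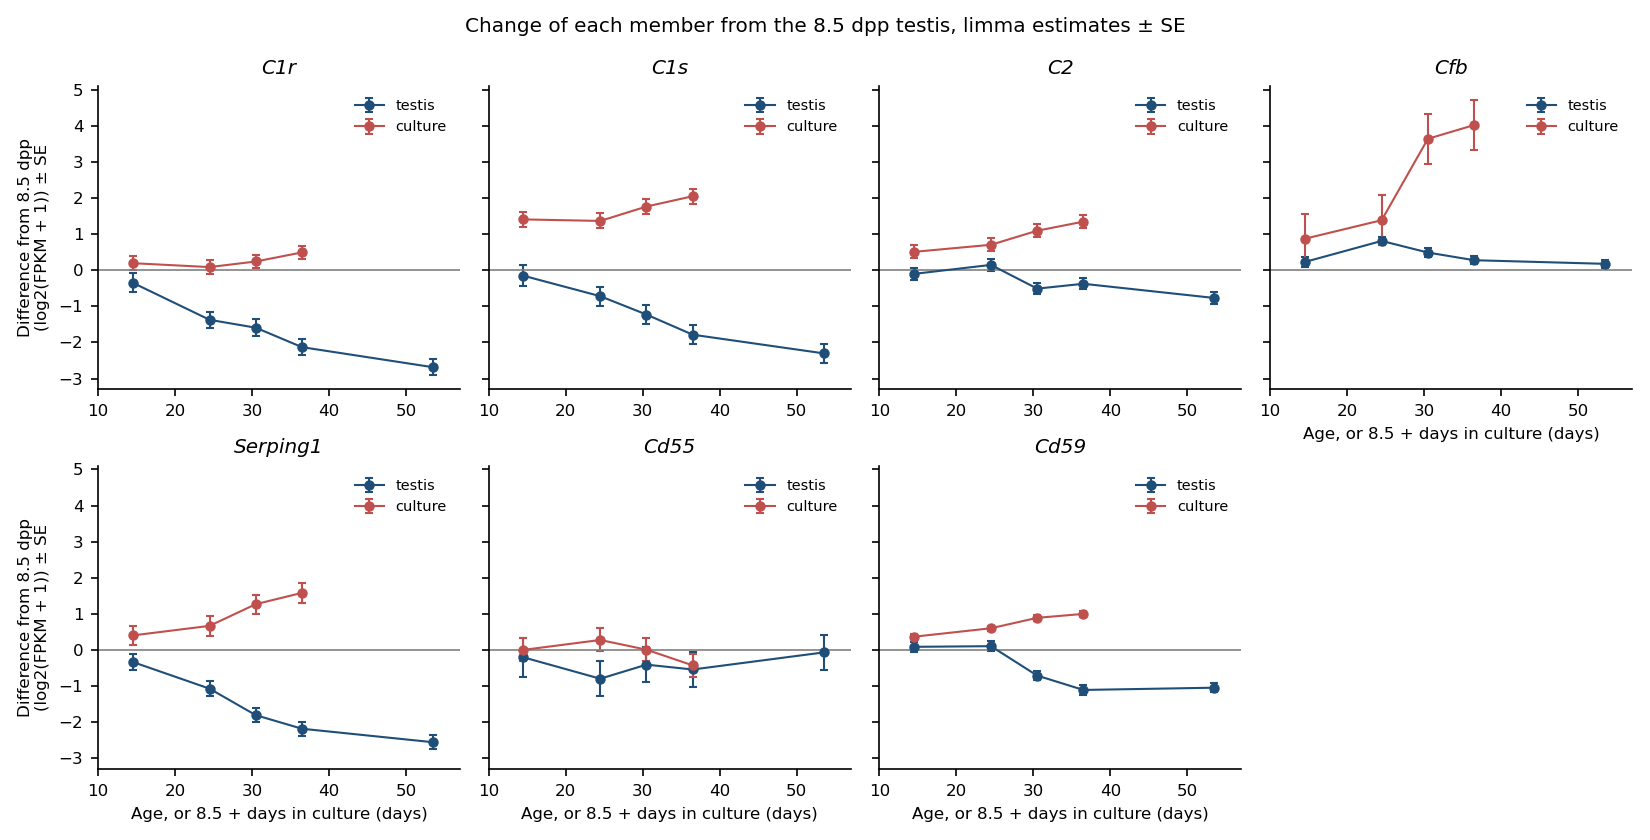
Difference from 8.5 dpp in log2(FPKM + 1) for 7 of the genes (limma estimate, bars are SE), against age for the testes (blue) and against 8.5 dpp plus days in culture for the explants (red). C3, listed at 0 in all testes, is left out. At 53.5 dpp C1r was at -2.69 and C1s at -2.30, falls that turned to rises when scaled to Wt1, Sox9 and Gata4, and at D28 C1s was at 2.05.

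Counted together, 4 of 8 members (C1s, C2, Cfb and Serping1) were called higher at D28 than at 8.5 dpp, where 13.2% of all tested genes were called higher, and the same 4 at D22 (13.3%), but C1s and Cfb alone at D16 (12.5%), where C2 (0.70, SE 0.18) was also called without 8.5 dpp replicate 1, D16 replicate 2 or D16 replicate 3 (0.71 to 0.77). Against 14.5 dpp the same 4 genes were called at D16, D22 and D28, beside 6.56%, 7.34% and 7.64% of all genes, and C2 was not called at D16 without 14.5 dpp replicate 1, at 0.62 (SE 0.25). The calls of Cfb at D16 come from the F test over all times, since its own contrast was at 1.16 (SE 0.85, adjusted p = 0.322) against 14.5 dpp and 1.38 (SE 0.70, adjusted p = 0.107) against 8.5 dpp. Its median was 0 FPKM at 8.5 dpp and 0.195 at 14.5 dpp, so Cfb passed the filter of 0.5 FPKM here only through the cultures. Against 8.5 dpp any culture median above 0 met the factor of 2, so the F test alone decided those calls of Cfb, also at D6. Both points hold for calls of C3 against testes in alternative fits. The number at D6 was smaller: C1s alone was called against 14.5 dpp (1 of 7 tested, 5.57% of all genes), with 1.56 (SE 0.14, limma adjusted p = 0.00218), joined by Cfb without D6 replicate 2 (1.05, SE 0.16), and C1s and Cfb against 8.5 dpp (10.3% of all genes). The culture times share their control libraries, so these comparisons are not independent of each other. At D28 all 4 genes were also higher than at 8.5 and 14.5 dpp with each library divided by its Wt1, Sox9 and Gata4 level. These are 3 genes of Sertoli cells, the cells that nurse the germ cells. The scale factors were 0.43 to 0.51 at 8.5 dpp, 0.42 and 0.41 at 14.5 dpp and 0.39 to 0.44 at D28. Such like factors could move these contrasts little, so the scaling is no further support for them.

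In the developing testis, 5 of the members fell on the FPKM scale, though not when scaled to the 3 Sertoli cell genes, and Cfb was highest at 24.5 dpp in FPKM but at 30.5 dpp when so scaled (1.25 to 2.11, compared to 0.829 to 1.15 at 24.5 dpp). C1r was at 45.1, 28.6 and 35.8 FPKM at 24.5 dpp, at 30.0, 24.1 and 39.9 at 30.5 dpp, at 29.2, 18.6 and 16.5 at 36.5 dpp and at 13.4, 11.7 and 17.0 at 53.5 dpp. C1s was at 27.5, 19.9 and 29.2 FPKM at 24.5 dpp, at 16.7, 12.7 and 24.9 at 30.5 dpp, at 17.3, 10.2 and 8.64 at 36.5 dpp and at 7.56, 5.91 and 10.4 at 53.5 dpp. Serping1 was at 17.7, 10.4 and 18.1 FPKM at 24.5 dpp, at 8.09, 7.68 and 10.2 at 30.5 dpp, at 8.22, 6.40 and 4.92 at 36.5 dpp and at 4.44, 4.23 and 5.54 at 53.5 dpp. All libraries of these 3 genes at 24.5 dpp and later lay below all of 8.5 dpp, and the mean at 53.5 dpp was 0.147 (C1r), 0.188 (C1s) and 0.146 (Serping1) of that at 8.5 dpp. The order of mean levels followed age in each, but neighbouring ages from 24.5 dpp on overlapped in several cases, as for C1r at 24.5 and 30.5 dpp.

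Cd59 stayed between 182 and 229 FPKM up to 24.5 dpp. It was at 126, 103 and 128 FPKM at 30.5 dpp, at 93.1, 83.1 and 93.3 at 36.5 dpp and at 93.1, 79.0 and 112 at 53.5 dpp. The last 2 ages overlapped each other, and both lay below all younger libraries except that the highest 53.5 dpp value exceeded the lowest of 30.5 dpp. C2 was at 2.41, 2.41 and 1.25 FPKM at 24.5 dpp, at 0.737, 0.851 and 1.07 at 30.5 dpp, at 1.34, 0.920 and 0.959 at 36.5 dpp and at 0.538, 0.610 and 0.570 at 53.5 dpp, the last below all other in vivo libraries. Cfb was at 0.841, 0.588 and 0.950 FPKM at 24.5 dpp, above every other age, and fell back to 0.146, 0.210 and 0.10 at 53.5 dpp. Cd55 ranged from 2.74 to 19.8 FPKM within 53.5 dpp alone.

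In limma, 6 of 7 tested members were called over the in vivo ages, where 90.2% of all genes were called, so the count is no sign of a difference from other genes. At 53.5 dpp against 8.5 dpp, the log2(FPKM + 1) change was -2.69 (SE 0.23) for C1r, -2.55 (SE 0.20) for Serping1, -2.30 (SE 0.26) for C1s, -1.04 (SE 0.13) for Cd59 and -0.77 (SE 0.16) for C2, and each of these 5 falls turned into a rise of 1.10 to 2.88 when scaled to Wt1, Sox9 and Gata4. Over all genes, the median change was -0.74, and with that scaling 2.19. Cfb was higher at 24.5 than at 8.5 dpp by 0.81 (SE 0.11), a gene whose call over the ages was lost in 1 fit of all 10 groups, and Cd55 did not pass (F test, adjusted p = 0.582), though it was called without 53.5 dpp replicate 3 and under the Wt1, Sox9 and Gata4 scaling. Summed levels of several somatic marker lists also fell from 8.5 to 53.5 dpp. Those of 9 stromal markers went from 1192 to 1222 FPKM down to 14.2 to 27.4. Sertoli cell markers went from 1372 to 1497 FPKM down to 110 to 130. Endothelial markers went from 46.1 to 48.6 FPKM down to 1.87 to 3.29, and peritubular cell markers from 684 to 731 down to 33.9 to 43.0. The sum of 10 macrophage markers instead rose from 71.3 to 96.5 FPKM to 222 to 269, and that of 6 spermatid markers reached 11804 to 17269. The part of these cell types in the result was not tested.

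Against testes of the age the explants would have reached, the differences combined both courses. At D16 against 24.5 dpp, 4 of 7 members were called higher (25.3% of all genes): C1s by 2.08 (SE 0.16), Serping1 by 1.74 (SE 0.20), C1r by 1.46 (SE 0.18) and Cd55 by 1.07 (SE 0.18), with limma adjusted p from 4.79e-05 to 0.0014, and under the Wt1, Sox9 and Gata4 scaling C1r (-0.19) and Cd55 (-0.39) changed sign and C1s (0.44) and Serping1 (0.13) lost their calls too. Cd55 was at 13.3, 10.6 and 11.1 FPKM at D16 and at 4.57, 6.67 and 4.05 at 24.5 dpp, and its call was lost without 24.5 dpp replicate 3, at 0.95 (SE 0.17). Cfb (0.57, SE 0.13) was called without 24.5 dpp replicate 3, D16 replicate 1 or D16 replicate 2, at 0.61 to 0.65.

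At D22 against 30.5 dpp, 6 of 8 members were called higher (42.1% of all genes), and at D28 against 36.5 dpp 6 of 8 (46.7%). They were C1r, C1s, C2, Cfb, Serping1 and Cd59 both times, and several of these directions depended on the scaling. At D28 the ratio of mean FPKM was 72.0 for Cfb, 16.1 for Serping1, 15.1 for C1s, 6.41 for C1r, 5.46 for C2 and 4.34 for Cd59, and the rises of C1r, C2 and Cd59 turned to -0.81, -0.81 and -1.38 under the Sertoli gene scaling, while C1s and Serping1 kept their sign but lost their calls (0.44 each, adjusted p = 0.154 and 0.209) and Cfb kept its call (1.90). C1s was higher by 3.83 (SE 0.27, limma adjusted p = 6.41e-06) and Serping1 by 3.76 (SE 0.29, adjusted p = 1.12e-05). At D22 the differences were 2.99 (SE 0.31) for C1s, 3.07 (SE 0.26) for Serping1 and 3.15 (SE 0.81) for Cfb, and under the scaling C1s turned to -0.12, as did C1r, C2 and Cd59 to values from -1.58 to -0.54, and the calls of Serping1 (0.02) and Cfb (1.22, adjusted p = 0.16) were lost. The median over all genes was 0.64 at D28, and -2.11 with the scaling. C3 (1.33, SE 0.56, adjusted p = 0.0552) and Cd55 (0.11, SE 0.40) did not pass at D28, but C3 was called there without D28 replicate 2 (1.91, SE 0.44) and at D22 without D22 replicate 3 (1.56, SE 0.51). It was also called at both times with a pseudocount of 0.1 or in 1 fit of all 10 groups, at D28 with a pseudocount of 0.5 and with the replicate block, and against 8.5 dpp in the fit of all groups.

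The change from D6 to D28 was then set against the change from 14.5 to 36.5 dpp, which span the same number of days. This difference was past the threshold for 6 of 8 members (38.4% of all genes were called higher). It was 3.10 (SE 0.64) for Cfb, 3.03 (SE 0.41) for Serping1, 2.28 (SE 0.35) for C1s, 2.08 (SE 0.35) for C1r, 1.83 (SE 0.15) for Cd59 and 1.11 (SE 0.26) for C2, with limma adjusted p from 1.59e-06 to 0.00265, and all but that of Cfb (1.55) turned negative under the Wt1, Sox9 and Gata4 scaling. The median over all genes was 0.63. The call of C2 was lost without 14.5 dpp replicate 2, at 0.92 (SE 0.28), and under quantile normalization, at 0.88 (SE 0.24). C3 (1.24, adjusted p = 0.136, but called at 1.81 without D28 replicate 2) and Cd55 (-0.09, SE 0.67, adjusted p = 0.909) did not pass.

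Within the culture, Cfb and C2 were called over the 4 times (2 of 8 members, 6.71% of all genes). From D6 to D28, Cfb rose by 3.15 (SE 0.76) and C2 by 0.84 (SE 0.19) on the log2(FPKM + 1) scale (limma, F test, adjusted p = 0.0227 and 0.0263). Both calls were lost without D6 replicate 1, D6 replicate 2 or D28 replicate 3, where Cfb was at 3.36 (SE 0.89), 2.74 (SE 0.85) and 3.10 (SE 0.90), and that of C2 also without D16 replicate 2, D16 replicate 3 or D28 replicate 1. Serping1 (1.18, SE 0.29, F test adjusted p = 0.0386) and Cd59 (0.63, SE 0.078, adjusted p = 0.00109) passed the F test with a ratio of medians below 2, and Serping1 was called without D22 replicate 3 (1.18) or D28 replicate 2 (1.43). C1s (0.64, SE 0.23, adjusted p = 0.114) and C1r (0.30, SE 0.19, adjusted p = 0.379) did not pass.

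D22 replicate 1 and D28 replicate 1 stood apart in most members. They were the highest libraries of their group for C1r, C1s, C2, C3 and Serping1, and for Cfb too, and the lowest for Cd55. Over 12085 genes, 100 in the first and 201 in the second were at least 2 times both other replicates and at 1 FPKM or more, compared to 25 to 66 in the other cultured libraries, and 37 genes were shared, among them C3, C4b (a C4 gene) and Vtn (vitronectin, an inhibitor of pore formation). Without both libraries, an alternative chosen after seeing the data, C1s was at 1.85 (SE 0.11), Serping1 at 1.28 (SE 0.15), Cfb at 3.61 (SE 0.53) and C2 at 1.23 (SE 0.15) at D28 against 8.5 dpp, all still called, while Serping1 at D22 (0.98, SE 0.15) was not. C3 was then at 0.536 and 0.0993 FPKM at D22 and at 0.140 and 1.16 at D28.

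**Figure D4:**
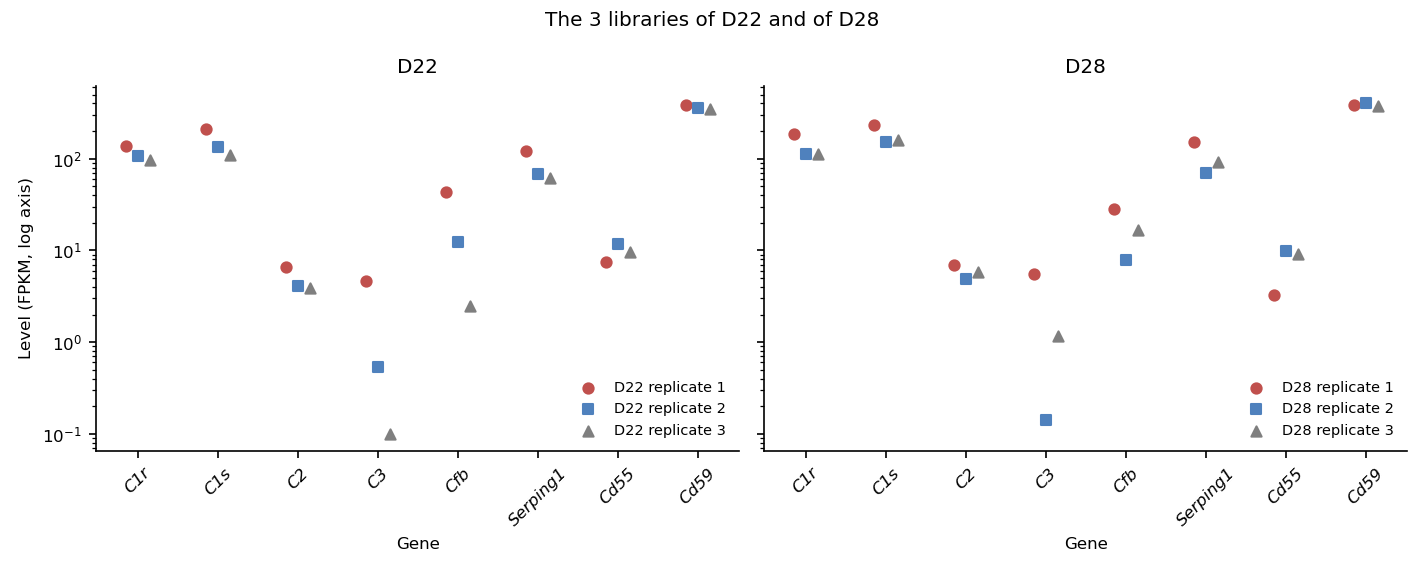
FPKM on a log axis of complement genes in the 3 libraries of D22 and the 3 of D28, with replicate 1 marked. Replicate 1 was highest at both times for C3 (4.64 and 5.50 FPKM) and Cfb (43.0 and 28.0 FPKM).

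Levels of C1s, C2, Cfb and Serping1 varied together among the cultures. Over the 12 cultured libraries, Pearson's r of log2(FPKM + 1) with Serping1 was 0.940 for C1s, 0.959 for C2 and 0.950 for Cfb. The lowest r among these genes was 0.912, between C1s and Cfb. With them, r was 0.666 to 0.887 for C1r, 0.821 to 0.902 for C3 and 0.691 to 0.842 for Cd59. Cd59 had r of 0.420 with C1r and 0.570 with C3, and Cd55 had r from -0.843 to -0.306 with the other members. These points share culture time and the 2 libraries named above. The r of gene pairs in general was not computed. Among 11886 genes, those most like C1s were Stk25 (0.962), Serping1 (0.940) and C4b (0.932), and those most like C3 were Ank1 (0.972), Ccl21 (0.955) and Flcn (0.947). Serping1 was most like Sgsm2 (0.964), Lama5 (0.963) and RT1-CE16 (0.961), C2 like Lama5 (0.966), Serping1 and Hsd3b1 (0.946), and Cfb like Serping1, Olr1433 (0.941) and Prr15 (0.938). The nearest genes were Rnase4 (0.947), Fcer1g (0.946) and Apba3 (0.944) for C1r, Ilrun (0.975), Slc17a9 (0.974) and Slc9a2 (0.970) for Cd59, and Cpsf2 (0.950), Qser1 (0.946) and Abraxas2 (0.942) for Cd55. Over the means of all 10 groups and among 12085 genes, C3 was most like Cfb (0.985), followed by C4b and Usp18 (0.980 each). C1s was most like Slc25a10 and Scarf1 (0.993 each) and Cd68 (0.992). Cfb was most like C3, C4b (0.981) and the interferon gene Mx1 (0.971). C1r was nearest to Laptm5, Slx1b and Stard3 (0.994 to 0.995), Cd59 to Plekha3, Atp6v0e1 and Fam219b (0.993 to 0.994), Serping1 to Galnt18, Rapgef3 and Ntn4 (0.990 to 0.993), C2 to Nr1d1, Tmco4 and Ppm1n (0.983 to 0.991) and Cd55 to Kctd1, Prr16 and Osbpl9 (0.831 to 0.849).

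The rest of the cascade was read from a list of 49 other complement genes. Of these, 44 were in the file, 26 passed the filter in at least 1 comparison, 16 had a median below 0.5 FPKM in every group, and Mbl2 and C8b were listed at 0 in every library. Against 8.5 dpp, 6 were called higher and 2 lower of 23 tested at D28, with a median log2 change of 0.49, where 13.2% of all genes were called higher and their median was 0.04. Against 14.5 dpp, 11 were called higher and 0 lower of 23 (median 0.94), beside 7.64% of all genes called higher (median -0.08). None of these changed sign under the Sertoli gene scaling, among the genes that had a value there. Its factors were nearly alike at 8.5 dpp, 14.5 dpp and D28, so it could move these contrasts little. In the testis, 23 of 25 were called over the ages, near the 90.2% of all genes. That call rests on the F test over all ages and the highest and lowest medians, not on 53.5 dpp alone. At 53.5 dpp 5 of them were above 8.5 dpp and 18 below, and 14 of these 23 changed sign under the scaling. Within the culture, only C3ar1, Clu and Cfd (factor D, the protease that cleaves factor B) were called over the 4 times, each higher at D28 than at D6.

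Among recognition molecules, C1qb and C1qc, chains of the molecule that carries C1r and C1s, were higher at D28 than at 14.5 dpp. Ptx3, a soluble pattern receptor, passed as well, as did the lectin pathway protease Masp2. Ptx3 was near the floor, at 0.162 to 0.262 FPKM at 14.5 dpp and 0.418 to 0.642 at D28, below the 0.702 to 0.829 of 8.5 dpp. C1qb held 12.6 to 13.8 FPKM at 8.5 dpp, 6.37 to 7.89 at 14.5 dpp and 17.5 to 35.8 at D28, a change of 1.57 (SE 0.33) from 14.5 dpp, and C1qc changed by 1.66 (SE 0.30). None of these was called against 8.5 dpp. C1qa, the other chain, held 22.3 to 27.2 FPKM at 8.5 dpp, 13.6 to 14.2 at 14.5 dpp and 24.2 to 50.8 at D28. Its ratio of medians was below 2 against both. Colec12, a membrane scavenger receptor, fell from 37.5 to 40.0 FPKM at 8.5 dpp to 11.2 to 11.7 at D28, by -1.69 (SE 0.08). C4b, whose product C1s cleaves, did not exceed 0.226 FPKM in vivo and ranged from 0.291 to 5.19 at D22 and from 0.834 to 7.03 at D28, and its values are uncertain because of the near-identical C4a.

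Among the soluble regulators, Clu (clusterin) rose most. It held 153 to 185 FPKM at 8.5 dpp, 436 to 554 at D6 and 2618 to 3391 at D28, a change of 4.15 (SE 0.13) from 8.5 dpp, and in the testis 1366 to 2082 at 24.5 dpp. C4bpb, a chain of the C4b-binding protein, passed against 8.5 dpp from values near the floor, 0 to 0.466 FPKM there and 0 to 2.19 at D28. It held 0.519 to 3.62 FPKM at D16, 0 to 0.412 at D22 and, in the testis, 5.51 to 7.30 at 53.5 dpp. Vtn held 3.78 to 4.93 FPKM at 8.5 dpp and 8.01 to 30.4 at D28 (1.58, SE 0.42). Of the membrane regulators, Cd46 held 5.27 to 8.19 FPKM at 53.5 dpp and at most 0.844 in any other group. Susd4 fell from 9.23 to 12.6 FPKM to 2.24 to 2.71, by -1.78 (SE 0.15). Only C8g of the terminal pathway was tested at D28, and it was not called.

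Receptors of complement fragments were called higher in 5 of 6 tested at D28 against 14.5 dpp (7.64% of all genes) and in 3 against 8.5 dpp (13.2%). C3ar1, the receptor of the fragment C3a, held 0.535 to 0.776 FPKM at 8.5 dpp, 1.17 to 1.63 at D6 and 6.65 to 9.22 at D28 (2.35, SE 0.12), compared to 2.07 to 5.55 at 24.5 dpp. C5ar2 and the integrin chain Itgb2 passed against 14.5 dpp alone. C5ar1, the receptor of C5a, went from 0.832 to 1.20 FPKM to 2.24 to 3.64 (0.90, SE 0.16). Cd93 held 7.43 to 8.78 FPKM at 8.5 dpp and 20.1 to 45.9 over all cultures (1.52 at D28, SE 0.23).

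**Figure D5:**
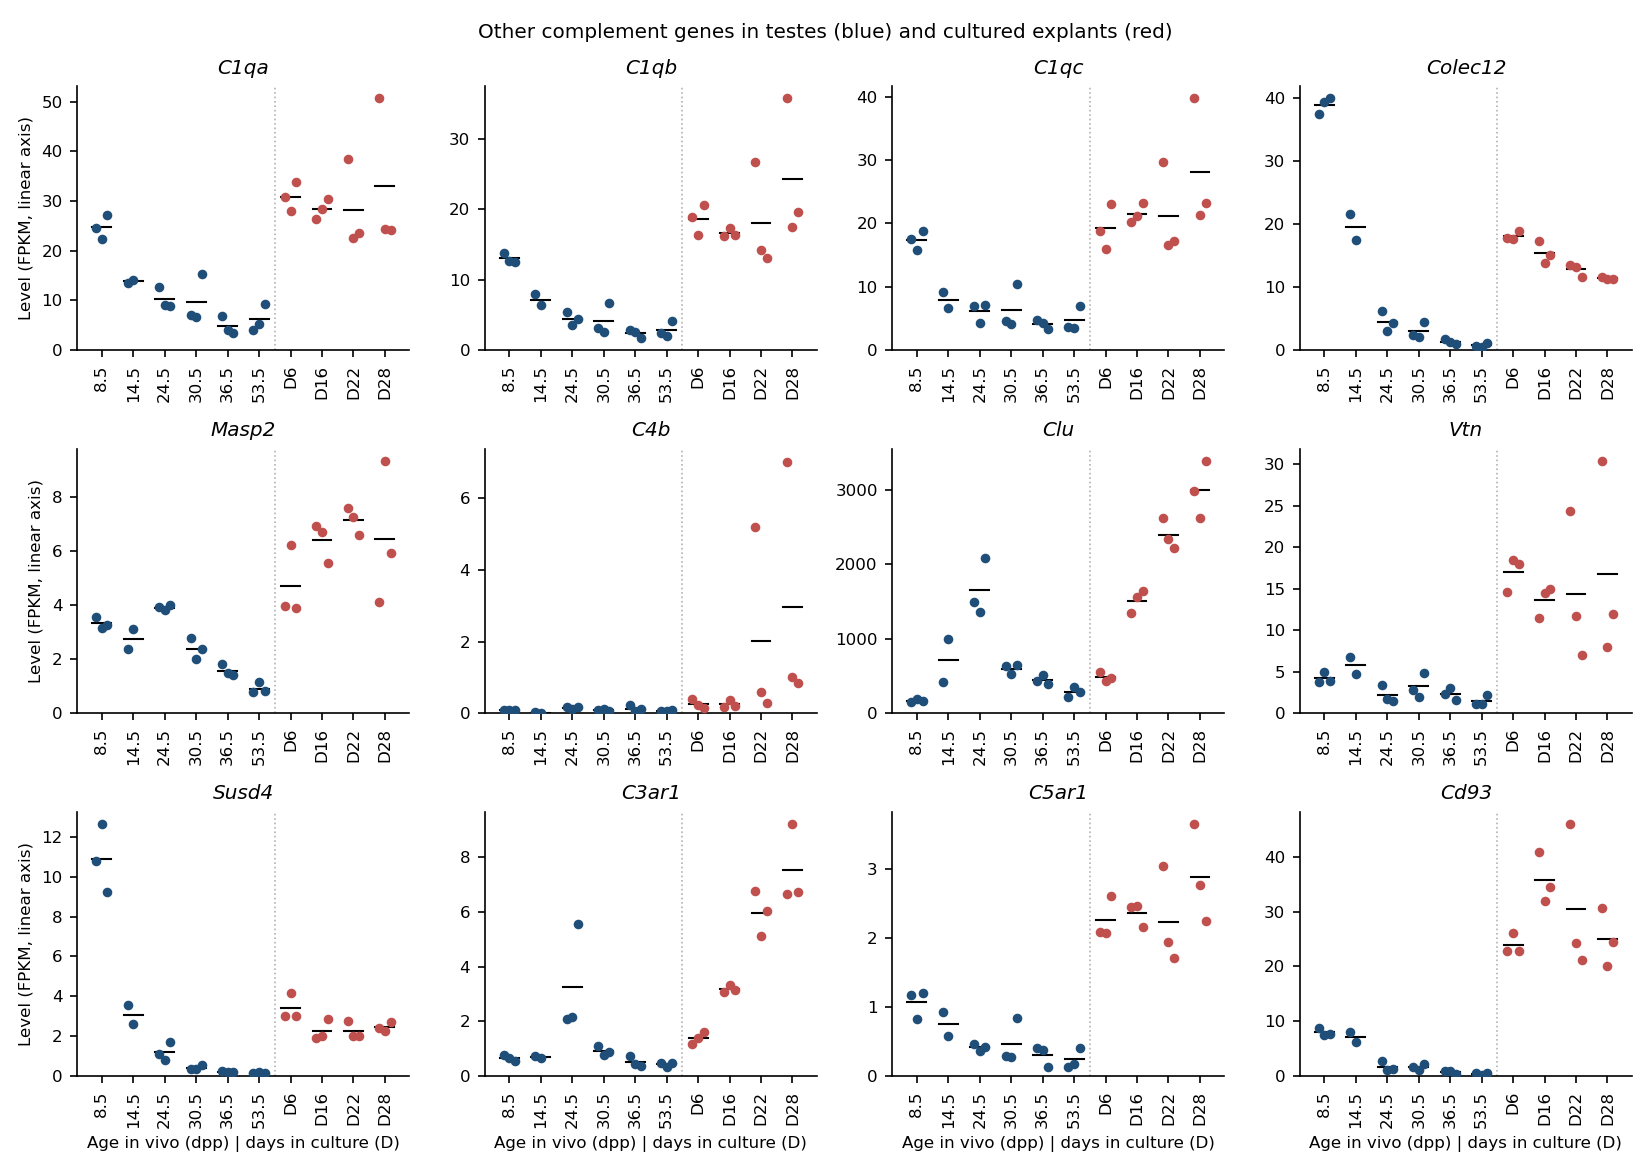
FPKM of 12 other complement genes in each library (dots) with group means (bars), in vivo in blue and culture in red, on linear axes that differ between panels. Clu reached 2618 to 3391 FPKM and C3ar1 6.65 to 9.22 FPKM at D28.

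Cell type markers and genes of the inflammatory response were read beside these results. The summed level of 10 macrophage markers was 71.3 to 96.5 FPKM at 8.5 dpp, 50.7 to 65.9 at 14.5 dpp, 93.5 to 101 at D6 and 140 to 159 at D28. In older testes it was 127 to 142 FPKM at 36.5 dpp and 222 to 269 at 53.5 dpp, above every culture. Of 9 tested, 5 were called higher and 1 lower at D28 against 8.5 dpp, and Cd163 was listed at 0 in all cultures. In that contrast 13.2% of all tested genes were called higher. The share called lower was not counted, here or for the lists below. The rise of this sum in culture was mostly Mpeg1, at 18.5 to 22.9 FPKM at 8.5 dpp and 78.6 to 99.1 at D28. Without Mpeg1 the sum was 52.8 to 73.7 FPKM at 8.5 dpp and 49.6 to 80.8 at D28, and Tyrobp fell from a mean of 38.6 FPKM to 18.7. At 53.5 dpp the sum without Mpeg1 was 215 to 262 FPKM. The sum of 9 stromal markers was 1192 to 1222 FPKM at 8.5 dpp, 575 to 581 at 14.5 dpp and 628 to 929 in culture, with 0 called higher and 5 lower of 8. Endothelial markers summed to 46.1 to 48.6 FPKM at 8.5 dpp and 52.4 to 96.6 in culture, and Sertoli cell markers to 1372 to 1497 and 1040 to 1383. Larger falls were seen in other sums. Markers of Leydig cells, which make steroids, went from 230 to 330 FPKM at 8.5 dpp to 12.7 to 36.8 in culture. Peritubular cell markers went from 684 to 731 FPKM to 81.8 to 380, and blood markers from 284 to 699 to 1.16 to 8.49. Those of spermatogonia, early germ cells, rose from 150 to 155 FPKM to 228 to 335. Liver markers, of the organ that makes most plasma complement, summed to at most 0.397 FPKM in vivo and to 0 in culture, although Ttr and Apoa2 were listed at 0 in every library. Of 18 response genes, 9 were called higher and 0 lower at D28 against 8.5 dpp, beside 13.2% of all tested genes called higher. Their sums were 168 to 191 FPKM at 8.5 dpp and 276 to 407 at D28. Stat3, which acts downstream of interleukin 6, was called, with a change of 1.31 (SE 0.11), and Nfkbia, a target and inhibitor of NF-kB, was at 0.71 (SE 0.093) with a ratio of medians below 2. The part of macrophages, endothelium, the other cell types and the response genes in the members' levels was not tested.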

How the data were processed

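The authors sequenced stranded poly(A) libraries as 50 bp single reads (bcl2fastq 2.17.1.14), aligned them to rn6 with STAR 2.5.2a and estimated expression with StringTie 1.3.3. The deposited FPKM (called RPKM in the paper) are normalized to length and mapped reads, and depth is unknown. Of 17322 genes, 17172 were named from RefSeq. Here, limma 3.58.1 in R 4.3.3 was run on log2(FPKM + 1), a scale that understates changes of low genes, over genes whose median reached 0.5 FPKM in any group compared. A gene was called at a Benjamini-Hochberg adjusted p of at most 0.05 over all tested genes with group medians differing by a factor of 2 or more, or, for the difference of changes, a log2 difference of at least 1. Comparisons of several groups used the F test, and SEs are of single contrasts. In simulated data with normal noise, 90.5% to 98.7% of 200 genes shifted by 2 on the log2 scale were recovered. Only genes of higher mean level were shifted, so this rate does not cover C2, C3 or Cfb, nor changes smaller than 2. Likeness was Pearson's r among genes whose median reached 1 FPKM in a group. Genes named are the 8 members, other listed complement genes, of which 1 is counted but not reported here, and the 3 genes most like a member. The members and lists were chosen with earlier results of these data known. Python 3.11.15 drew the figures (matplotlib 3.10.9). Alternatives changed the pseudocount, filter, scaling, threshold, model and libraries.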

Additional observations from a re-analysis of the deposited data

Results flagged for a closer look

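The change from D6 to D28 in culture differed from the change from 14.5 to 36.5 dpp in vivo by a test of the difference itself for 6 members: by 3.10 for Cfb, 3.03 for Serping1, 2.28 for C1s, 2.08 for C1r, 1.83 for Cd59 and 1.11 for C2 on the log2(FPKM + 1) scale (limma, adjusted p from 1.59e-06 to 0.00265). Under the Wt1, Sox9 and Gata4 scaling all but Cfb turned negative. Groups held at most 3 libraries, so no group was tested for a single library far from the others.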

How the results depend on the processing

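Of 978 values of 46 member changes over all alternatives, 926 kept direction and side of the threshold. Scaling to Wt1, Sox9 and Gata4 turned 19 around: C1r (-0.19) and Cd55 (-0.39) at D16 against 24.5 dpp; C1s (-0.12), C2 (-0.54), Cd59 (-1.58) and C1r (-1.30) at D22 against 30.5 dpp; C2 (-0.81), Cd59 (-1.38) and C1r (-0.81) at D28 against 36.5 dpp; C1s (1.45), C2 (1.51), Cd59 (2.88), Serping1 (1.10) and C1r (1.15) at 53.5 against 8.5 dpp; and C1s (-1.02), C2 (-1.20), Cd59 (-1.60), Serping1 (-0.20) and C1r (-1.28) in the difference of changes. With it 1 member was called at D16 against 24.5 dpp (8233 genes, 5082 unscaled). This was Cd59, now lower and not called unscaled. At D28 against 36.5 dpp 3 members were called, Cfb higher and both Cd55 and Cd59 lower, and over culture times 1 (Cfb). The cause was not tested. A ratio of medians of 1.5 gave 3255 genes against 14.5 dpp (main 1868), 1622 at D6 against 14.5 dpp (main 898), 5663 against 8.5 dpp and 1702 over culture times (main 762), with 4 members there. Leaving out 1 library gave 406 to 944 genes and 1 to 2 members at D6 against 14.5 dpp, 0 to 3 members over culture times, and no turned direction in 485 values. The libraries' numbers did not pair them (r from -0.141 to 0.218 over 126 same-numbered pairs). The replicate block gave 376 genes at D6 against 14.5 dpp and changed no call among the 46 member changes, though C3 was called with it at D28 against 36.5 dpp (1.33). Leaving out D22 replicate 1 and D28 replicate 1, chosen after seeing the data, changed 0 of 17 of these, but Serping1 at D22 against 8.5 dpp was not called. With FPKM alone, depth sets an unknown limit for C3, Cfb and C2.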
